A study of Mus musculus with 10 samples.

Results

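T helper 2 (Th2) cultures were compared with embryonic stem (ES) cells by RNA-seq, using 4 of the 10 mouse libraries of a series on Polycomb and Trithorax complexes in T lymphocytes: 2 libraries of Th2 cultures and 2 of ES cells. Of 19025 genes in the deposited tables, 14348 were left after leaving out those listed at 0 in all 4 libraries of Th2 cultures (the 2 used here and 2 treated with trichostatin A) or in all 6 libraries of ES cells, splenic B cells and splenic CD4 T cells. A further filter, at least 1 FPKM in 2 of the 10 libraries, left 12367 genes for testing. FPKM is the number of fragments of a gene per length of its transcript and per size of the library, so levels can be compared between genes.

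The Th2 cultures were grown from splenic CD4 T cells of C57BL/6 mice for 5 days in vitro with 15 ng/ml interleukin 2 and 10 ng/ml interleukin 4. They are a population expanded in culture, and the labels do not give the age of the mice or say whether the replicates came from separate animals or cultures. The ES cells were the line B6N-22, labelled C57BL/6, kept on mouse embryonic fibroblasts treated with mitomycin C, in medium with 1000 units/ml leukemia inhibitory factor (LIF) and 20% fetal bovine serum. The RNA of an ES sample can therefore include RNA of the feeder fibroblasts. Freshly purified CD4 T cells from spleens of mice aged 6 to 8 weeks, with a stated purity over 98%, are set beside some results as the cells from which such cultures start.

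A Th2 cell is a CD4 T cell that interleukin 4, acting through the kinases JAK1 and JAK3 and the transcription factor STAT6, drives to express GATA3 and the cytokines interleukin 4, 5 and 13. Interleukin 2 keeps such cells dividing through a receptor built from Il2ra, Il2rb and the common gamma chain Il2rg. An ES cell divides without limit in culture and keeps the potential to form all tissues of the embryo through a network of transcription factors led by OCT4 (the product of Pou5f1), SOX2 and NANOG, which LIF sustains through its receptor and STAT3. Both populations are grown as dividing cells, so the comparison sets a differentiated lymphocyte in culture beside a pluripotent cell in culture.

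The markers followed the labels. Gzmb, which encodes the protease granzyme B, was at 1727 and 2059 FPKM in the 2 Th2 cultures and at 0.01 and 0 in the 2 ES libraries. Gata3, the Th2 lineage factor, was at 80.3 and 98.1 FPKM in Th2 cultures against 1.43 and 1.53 in ES cells. Pou5f1 was listed at 0 in both Th2 cultures and stood at 620.3 and 619.9 FPKM in ES cells, and Sox2 was listed at 0 in both Th2 cultures and stood at 168 and 169.8 FPKM in ES cells. No library of either group reached into the range of the other for any of these 4 markers. Sox2, listed at 0 in all 4 libraries of Th2 cultures, was left out of the test by the rule on zeros.

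The stretches of genome directly upstream of 12 genes are shown because the genes belong to groups described in the results and because the letters of the promoters differ between groups. All are 150 bases that end 1 base before the first transcript start in RefSeq, build GRCm38.p6, read along the strand of the gene, and the genes were chosen after their values and letters were seen. In the first set, from 3 of the genes with the largest increase in Th2 cultures and 3 of those with the largest decrease, capitals mark each CpG, the dinucleotide that mammalian DNA methylation acts on. The T cell genes are Gzmb (chr14:56262335-56262484, minus strand), Il2ra (chr2:11642642-11642791, plus strand) and Cd3g (chr9:44980432-44980581, minus strand), and the ES cell genes are Pou5f1 (chr17:35505882-35506031, plus strand), Utf1 (chr7:139943706-139943855, plus strand) and Dnmt3l (chr10:78042137-78042286, plus strand).
Gzmb: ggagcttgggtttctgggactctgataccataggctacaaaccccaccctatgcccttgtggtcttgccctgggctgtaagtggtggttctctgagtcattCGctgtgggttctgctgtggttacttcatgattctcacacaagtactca
Il2ra: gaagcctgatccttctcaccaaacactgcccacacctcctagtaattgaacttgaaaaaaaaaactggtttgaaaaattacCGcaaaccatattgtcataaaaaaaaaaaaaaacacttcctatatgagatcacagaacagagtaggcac
Cd3g: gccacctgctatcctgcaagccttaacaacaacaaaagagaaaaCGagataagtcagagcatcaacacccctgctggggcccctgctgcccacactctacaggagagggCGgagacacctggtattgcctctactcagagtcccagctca
Pou5f1: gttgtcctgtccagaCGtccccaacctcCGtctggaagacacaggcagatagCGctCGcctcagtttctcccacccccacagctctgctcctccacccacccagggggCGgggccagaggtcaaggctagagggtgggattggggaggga
Utf1: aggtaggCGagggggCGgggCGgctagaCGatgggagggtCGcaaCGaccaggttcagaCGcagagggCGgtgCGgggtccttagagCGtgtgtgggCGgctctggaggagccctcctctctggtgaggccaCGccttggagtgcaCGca
Dnmt3l: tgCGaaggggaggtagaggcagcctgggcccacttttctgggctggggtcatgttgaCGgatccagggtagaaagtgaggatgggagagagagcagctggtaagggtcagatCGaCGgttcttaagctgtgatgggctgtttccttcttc

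These stretches hold 1, 1 and 2 CpG upstream of the T cell genes and 5, 13 and 4 upstream of the ES cell genes. Over the full windows of 300 bases that the RefSeq table gives, from 250 before to 50 after the start, a window was called CpG-rich when its ratio of observed to expected CpG was at least 0.6 and its GC content at least 50%. Windows were found for 9923 of the 12367 genes, and 67.4% of them were CpG-rich. Among genes with a large increase in Th2 cultures, as defined further on, the share was 37.8% of 632, with a median of 11 CpG per window against 20 over all genes tested. Among genes with a large decrease it was 59.4% of 973, with a median of 19. None of the 16 windows of T cell identity genes and none of the 8 of Gimap genes were CpG-rich. Among pluripotency factors 6 of 9 windows were CpG-rich (66.7%), and among ES cell markers 5 of 11 (45.5%). Neither share lay above that of all windows, so the printed stretches do not stand for CpG-dense promoters of ES cell genes as a group. These shares describe the letters of the windows and were not tested.

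In the second set, capitals mark the core of the site of E2F transcription factors, searched as TTCCCGC and TTGGCGC on both strands, upstream of 3 DNA replication genes. The genes are Mcm6 (chr1:128359706-128359855, minus strand), Cdc6 (chr11:98908001-98908150, plus strand) and Rrm1 (chr7:102441545-102441694, plus strand).
Mcm6: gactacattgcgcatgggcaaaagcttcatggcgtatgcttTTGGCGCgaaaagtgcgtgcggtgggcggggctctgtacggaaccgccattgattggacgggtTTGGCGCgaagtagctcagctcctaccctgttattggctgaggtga
Cdc6: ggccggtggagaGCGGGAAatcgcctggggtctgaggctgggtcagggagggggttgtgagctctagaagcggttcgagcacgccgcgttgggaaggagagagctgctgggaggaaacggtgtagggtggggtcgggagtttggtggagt
Rrm1: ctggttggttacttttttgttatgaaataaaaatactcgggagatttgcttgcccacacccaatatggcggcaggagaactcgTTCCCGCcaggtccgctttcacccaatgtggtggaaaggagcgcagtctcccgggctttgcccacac

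In the third set, capitals mark the cell cycle homology region (CHR), the element bound by the DREAM and MuvB complexes at genes of mitosis, searched as TTTGAA and TTCGAA on both strands. The genes are Cdk1 (chr10:69352913-69353062, minus strand), Cdc20 (chr4:118437344-118437493, minus strand) and Top2a (chr11:99024190-99024339, minus strand).
Cdk1: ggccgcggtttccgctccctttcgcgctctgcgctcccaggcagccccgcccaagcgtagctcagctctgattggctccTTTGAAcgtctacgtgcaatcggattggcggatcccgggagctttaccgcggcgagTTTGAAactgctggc
Cdc20: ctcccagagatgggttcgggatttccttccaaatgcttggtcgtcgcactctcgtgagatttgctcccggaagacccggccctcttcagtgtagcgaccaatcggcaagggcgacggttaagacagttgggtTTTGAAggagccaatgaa
Top2a: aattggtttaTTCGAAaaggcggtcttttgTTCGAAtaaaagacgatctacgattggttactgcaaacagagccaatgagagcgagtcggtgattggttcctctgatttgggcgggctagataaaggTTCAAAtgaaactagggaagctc

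An E2F core was found in 18 of 32 windows of DNA replication genes (56.2%) and in 12.3% of all windows of genes tested. A CHR was found in 27 of 34 windows of mitosis genes (79.4%) and in 13.9% of all windows. Neither motif contains the other. Unlike the genes of the first set, most tested genes of these 2 lists lay within 2-fold of the ES level (34 of 39 and 30 of 40), as described below. Mcm6, Cdc6, Rrm1 and Cdc20 were among the genes shown that were still called. Rrm1 was higher, at 110 and 92.3 FPKM in Th2 cultures against 50.05 and 49.9 in ES cells. Cdc20 was lower, at 70.03 and 64.6 against 146 and 147 FPKM, and was not called with median-ratio scaling. The calls of Mcm6, Cdc6, Rrm1 and Cdc20 were lost without the first Th2 library. A match is a description of the letters and not a measured site.

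Between the 2 Th2 libraries the SD of the log2 ratio of genes at 10 FPKM or more was 0.307, and between the 2 ES libraries it was 0.042. The ES spread fell with the level of a gene much as sampling of reads alone would make it: the depth it implies varied 2.14-fold between levels, against 16.46-fold for the Th2 pair. True depth is unknown, so this was taken as a working assumption, and the 2 ES libraries were averaged and counted as 1 sample, as were those of the B and the CD4 T cells, and Th2 cultures have n = 2. The test was limma on log2(FPKM + 1) with 7 samples, 2 residual degrees of freedom and Benjamini-Hochberg adjustment over 12367 genes. The single ES sample is assumed to vary as the Th2 groups do. The sample titles number the Th2 libraries exp1 and exp2, and nothing in the labels says whether these were separate cultures or animals. The p-values may therefore reflect technical spread alone. The Th2 files repeat 1 value for all rows of a gene while the ES files hold a value per transcript, so the kind of file and the cell cannot be told apart for any gene. For genes with several rows, the way rows are combined also enters the comparison. Some genes listed at 0 in all Th2 files may be names that were not matched: the ribosomal protein gene Rpl26, needed in every cell, was listed at 0 there and at 588 and 603 FPKM in ES cells.

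At an adjusted p below 0.05, 2542 genes were higher in Th2 cultures (20.6% of those tested) and 5629 were lower (45.5%), while 4196 were called in neither direction. The median gene was lower by 0.41 on the log2 scale (a median of -0.41), and this shift shrank to -0.08 with median-ratio scaling and -0.05 with quantile normalization. The share of calls that were higher was 31.1% with the deposited scaling, 45.7% with median-ratio scaling (3479 higher, 4134 lower) and 47.5% with quantile normalization (3797 higher, 4198 lower). Under all 3 scalings 2522 genes were called higher and 3572 called lower. Ribosomal protein genes took 16.6% and 18.2% of the summed FPKM in Th2 cultures and 11.8% in each ES library, and the part of this difference in the shift was not tested. Because calls cover most genes, a second rule of size is read beside them: a large change is a call whose log2 fold change is 2 or more in size and whose higher group reaches 5 FPKM or more. By this rule 808 genes were increased (6.53%) and 1299 decreased (10.5%). The Th2 and ES libraries did not overlap for any of them, which the rule makes nearly certain with 2 libraries per group. The plot of all tested genes shows both arms and the dense band along the diagonal between them.

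**Figure D1:**
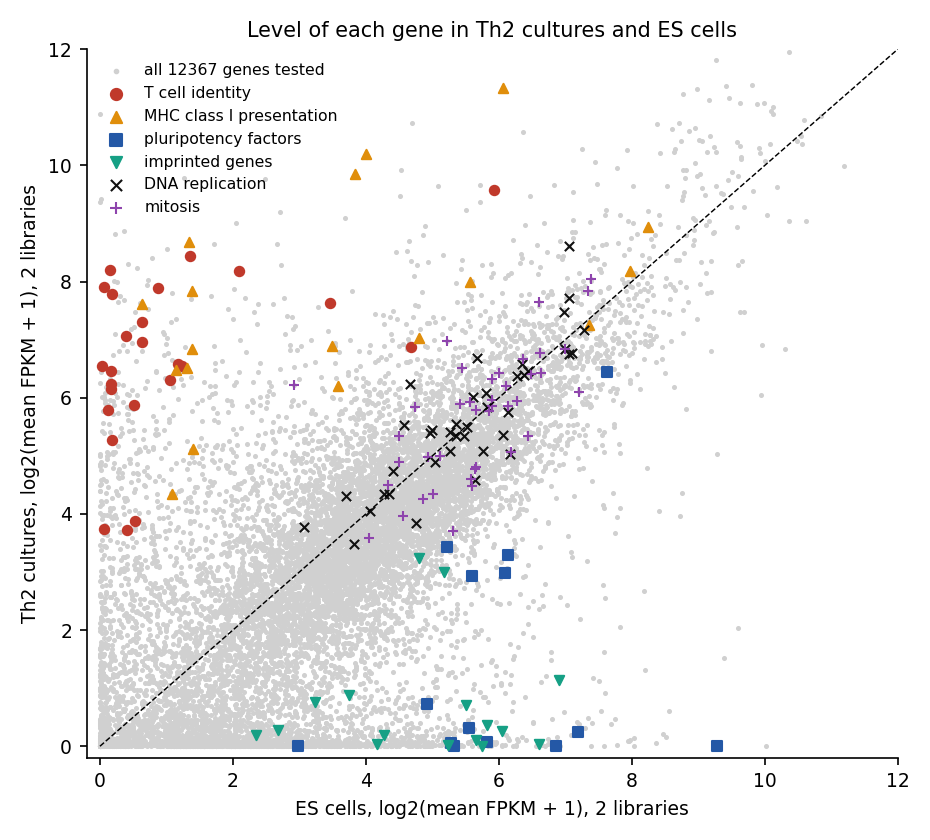
Level of each of the 12367 tested genes in ES cells (horizontal axis) and Th2 cultures (vertical axis), both as log2(mean FPKM + 1) over 2 libraries, with 6 gene lists marked and equal levels as a dashed line. T cell identity and most MHC class I genes lie far above the line, pluripotency factors and imprinted genes below it, and DNA replication and mitosis genes along it.

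The largest increases in Th2 cultures were genes of cytotoxic granules, of the interleukin 2 receptor and of the T cell surface. Gzmb had the largest log2 fold change, 10.87 ± 0.26 (± standard error, limma adjusted p = 1.38e-05). Il2ra, the chain that gives the interleukin 2 receptor its high affinity, was at 718 and 646 FPKM in Th2 cultures and 0 and 0.03 in ES cells. Gzma, encoding granzyme A, was at 339 and 985 FPKM in Th2 cultures and listed at 0 in both ES libraries, and its 2 Th2 values lay further apart than those of Gzmb. Il2rb was at 416 and 488 FPKM against 0.18 and 0.16, with a log2 fold change of 8.59 ± 0.15. The other 11 of the 15 largest were Cd52 (824 and 943 FPKM in Th2 cultures, 1.13 and 1.66 in ES cells), Cyp11a1, Cd3g, Cd48, Icos, Cst7, Il24, Batf, Cd3d, Tnfrsf4 and Cd53. Cyp11a1 encodes the enzyme that starts steroid hormone synthesis from cholesterol and stood at 406 and 534 FPKM in Th2 cultures, 0.24 and 0.34 in ES cells and 0.145 on average in CD4 T cells. Il24, a cytokine of the interleukin 10 family, was at 253 and 259 FPKM in Th2 cultures, 0.17 and 0.14 in ES cells and 0.035 in CD4 T cells.

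The largest decreases in Th2 cultures were genes of pluripotent cells mixed with genes of the extracellular matrix. Dppa5a, a gene of pluripotent cells, was listed at 0 in both Th2 cultures and stood at 1045 and 1036 FPKM in ES cells. Pou5f1 was next, followed by Fn1, the gene of fibronectin, at 0.09 and 0.15 FPKM in Th2 cultures and 363 and 363 in ES cells. Utf1 was at 0 and 0.08 against 324 and 329.7 FPKM, and Tdgf1, which encodes the Nodal co-receptor Cripto, was at 0.15 and 0.16 against 353 and 352. Others among the 15 largest were Trh, Dnmt3l, Gsta4, Apoe, Thbs1, Zfp57, Tnc, Spp1 and Tdh. Fn1 and Thbs1 also belong to the list of fibroblast markers. All 16 tested members of that list were lower in Th2 cultures, and their summed level, with that of 4 members at 0 in the Th2 files, was 1950 and 1952 FPKM in ES cells against 9.74 and 12.35 in Th2 cultures. The collagen gene Col3a1 stood at 43.6 and 44.1 FPKM in the ES libraries. The part of feeder RNA in genes high in the ES libraries was not tested.

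**Figure D2:**
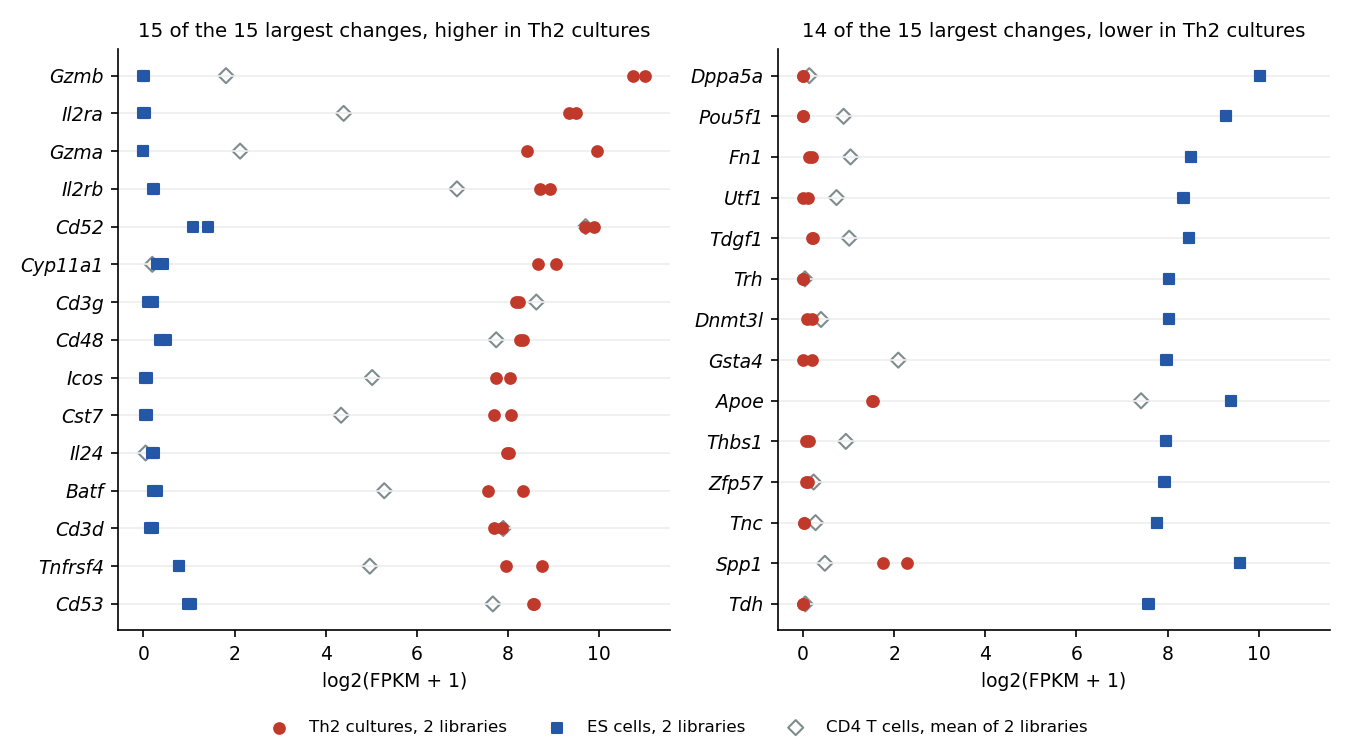
The 15 largest increases (left) and 14 of the 15 largest decreases (right) in Th2 cultures as log2(FPKM + 1), with a point for each of the 2 libraries of Th2 cultures and of ES cells and a diamond for the mean of 2 libraries of CD4 T cells. Th2 and ES libraries are far apart for all 29 genes, and the CD4 T cells lie near the ES cells for Cyp11a1 and Il24 and near the Th2 cultures for Cd52 and Cd3d.

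Genes of T cell identity were uniformly higher in Th2 cultures. All 25 tested members were called higher, all 25 by a large change, with a median log2 fold change of 5.98 against -0.41 over all genes tested. Cd3g, a chain of the T cell receptor complex, was at 287 and 302 FPKM in Th2 cultures and 0.16 and 0.07 in ES cells, with a log2 fold change of 8.05 ± 0.13. Cd3d, its partner chain, was at 205 and 232 against 0.10 and 0.16 FPKM. Icos, a costimulatory receptor induced on activated T cells, was at 262 and 214 against 0.05 and 0.03 FPKM, and Cd2, an adhesion receptor, at 359 and 338 against 1.46 and 1.68 FPKM. No ES library passed 1.68 FPKM for any of these 4 genes. The 8 Gimap genes, GTPases of lymphocyte survival, were all called higher too, with a median of 5.99, and Gimap3 was at 199.5 and 209 against 0.18 and 0.39 FPKM. Markers of other lymphoid cells were low in Th2 cultures: the 15 B cell markers summed to 6.14 and 9.04 FPKM, and the list of CD8 T and natural killer cells to 8.33 and 9.43 FPKM. Cd8b1 alone gave most of the latter, at 7.09 and 7.18 FPKM, while Cd8a was at 0.32 and 0.58, and both genes were singled out after their values were seen.

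The Th2 program itself was higher in 17 of 19 tested genes, with a median log2 fold change of 5.53. Il4, the cytokine that defines these cells, was at 75.4 and 95.96 FPKM in Th2 cultures and 0.03 and 0 in ES cells. Il10 was at 114 and 159 against 0.24 and 0.10 FPKM. Batf, a transcription factor of activated lymphocytes, was at 188 and 320.1 against 0.23 and 0.15 FPKM, with a log2 fold change of 7.69 ± 0.39. The chemokine receptors Ccr4 and Ccr8, which mark Th2 cells among other T cells, were at 95.2 and 75.8 and at 66.5 and 55.99 FPKM in Th2 cultures, and no ES value of either passed 0.21. The 2 members that were lower were Il1rl1, the receptor of interleukin 33, at 0.61 and 0.74 FPKM in Th2 cultures against 25.7 and 24.6 in ES cells, and Areg, an epidermal growth factor family ligand, at 0.15 and 0.16 against 6.68 and 5.87. Both are known Th2 genes, and both stood lower in these cultures than in the ES libraries. The part of feeder RNA in their ES levels was not tested.

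Genes of the other helper lineages were also higher, at lower levels. Of 13 tested Th1 and Th17 genes, 8 were called higher and none lower, with a median of 1.59. Il12rb1, a receptor chain for interleukins 12 and 23, was at 75.7 and 73.8 FPKM against 0.20 and 0.21. Cxcr3, a receptor of Th1 cells, was at 20.1 and 15.1 against 0 and 0.02, and Tbx21, the Th1 lineage factor, was at 7.8 and 7.07 against 0.14 and 0.12 FPKM. All 3 lay below Gata3 in the same libraries. Eomes, which pluripotent cells also carry as they differentiate, was not called: 3.17 and 0.75 FPKM in Th2 cultures, with wide spread, against 3.79 and 3.78.

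Transcription factors of lymphoid cells were higher in 20 of 25 cases, with a median of 3.12. Satb1, an organiser of chromatin in T cells, was at 168 and 156 FPKM against 1.22 and 1.2, Ikzf1 (Ikaros) at 73.5 and 64.8 against 0.37 and 0.43, and Ets1 at 184 and 206 against 4.96 and 5.14. Foxp3, the factor of regulatory T cells, Runx2 and Bcl6, the factor of follicular helper T cells, were called lower, and none passed 1.12 FPKM in either Th2 library (the value of Foxp3 in 1 of them). With quantile normalization none of the 3 was called and Foxp3 stood at a log2 fold change of 0.008, and Foxp3 also lost its call with median-ratio scaling and without the first Th2 library (-0.71, limma adjusted p = 0.1097). Tcf7, which naive T cells express, was not called (16.5 and 14.7 FPKM against 18.3 and 18.1), although CD4 T cells carried it at 556 FPKM. Lef1 was higher, at 26.3 and 22.6 FPKM against 10.6 and 10.9, with 116 in CD4 T cells, a call lost without the first or without the second Th2 library (limma adjusted p = 0.106 and 0.0744).

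The granule genes were mixed. Of 15 tested, 11 were called higher and 3 lower. Srgn, the proteoglycan serglycin on which granzymes are stored, was at 456 and 709.5 FPKM against 6.16 and 4.96. Gzmc was at 11.8 and 8.32 FPKM and listed at 0 in both ES libraries. The 3 that were lower were Lamp1, a membrane protein of all lysosomes, Ctsd, a protease of all lysosomes, and Gzme, at 0.29 and 0.24 FPKM in Th2 cultures against 2.14 and 1.5, which was not called with quantile normalization. Lamp1 was at 76.03 and 66.1 FPKM against 166 and 168, and Ctsd, called lower with the deposited but not with median-ratio scaling, at 108 and 122 against 208 and 209.8, and not called without the first or without the second Th2 library (limma adjusted p = 0.0902 and 0.0613).

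Cytokine receptors and their signalling separated the 2 populations at each step. Of 8 receptors of the common gamma chain family, 7 were called higher in Th2 cultures, with a median of 5.76. Il2rg, the common chain, was at 215 and 198 FPKM against 1.49 and 1.69, and Il21r at 65.9 and 80.7 against 0.26 and 0.27. Il9r alone was not called (0.33 and 0.26 against 0.06 and 0.07 FPKM), and it was called higher with quantile normalization. Among JAK, STAT and SOCS genes 14 of 21 were higher and 3 lower. All 4 Janus kinases and all 7 STAT genes were called higher. Stat5a, the messenger of interleukin 2, was at 19.8 and 21.01 FPKM against 1.31 and 1.34. Feedback inhibitors that cytokines induce were higher as well: Cish was at 177 and 215 FPKM against 4.02 and 4.41, and Socs1 at 136 and 229 against 2.99 and 2.57. Socs3, induced by both LIF and T cell cytokines, was not called, at 41 and 78.5 FPKM in Th2 cultures and 43.3 and 43.3 in ES cells.

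The LIF axis ran in opposite directions for ligand and receptor. Lif, the cytokine that was added to the ES cell medium, was at 139.7 and 166 FPKM in Th2 cultures and 3.97 and 4.26 in ES cells, a log2 fold change of 4.91 ± 0.18 (limma adjusted p = 4.22e-05). CD4 T cells carried Lif at 0.71 FPKM. Lifr, the receptor chain specific to LIF, was at 0 and 0.01 FPKM in Th2 cultures and 7.04 and 7.61 in ES cells, with a log2 fold change of -3.05 ± 0.078 (adjusted p = 1.56e-05). Il6st, the signalling chain gp130 that LIF shares with interleukin 6, was not called, at 19.98 and 16.6 against 19.7 and 20.02 FPKM.

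Surface receptors of activation, chemokine receptors and adhesion molecules followed the lymphoid pattern. Of 21 activation and tumour necrosis factor family receptors, 16 were higher and 2 lower. Tnfrsf4 (OX40), Tnfrsf9 (4-1BB) and Tnfrsf18 (GITR), receptors induced by T cell activation, were at 249 and 426, at 164 and 263 and at 295 and 505 FPKM, and no ES value of any of them passed 2.35. Tnfrsf12a, the TWEAK receptor of epithelial and mesenchymal cells, went the other way, at 2.16 and 2.64 FPKM against 70.98 and 71.5. Of 17 chemokines and receptors 11 were higher and none lower, among them Ccr7 at 58.02 and 72.9 FPKM against 0.44 and 0.49. Of 22 leukocyte adhesion and cytoskeleton genes 16 were higher, all by a large change, and 4 were lower. Coro1a, an actin regulator of leukocytes, was at 795 and 935 FPKM against 4.05 and 5.07, and Rac2, a small GTPase of blood cells, at 232 and 290.0 against 0.51 and 0.79. Itgb1, the integrin chain for matrix, was lower, at 39.7 and 25.3 FPKM against 191 and 191.

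Antigen presentation by MHC class I was among the strongest differences. Of 18 tested genes 16 were called higher and none lower, 15 of them by a large change, with a median of 4.47. H2-K1, a classical class I heavy chain, was at 1051 and 1292 FPKM in Th2 cultures and 15.3 and 14.8 in ES cells. Psmb8 and Psmb9, catalytic subunits of the immunoproteasome, were at 391 and 433 against 1.65 and 1.4 and at 199 and 256 against 1.61 and 1.62 FPKM. The 2 genes not called were the general chaperones Canx and Pdia3, which serve all glycoproteins, and Pdia3 was called higher with median-ratio scaling. The ordinary proteasome did not share this rise. Of 31 tested subunits, none was higher and 14 were lower with the deposited scaling, against 20.6% and 45.5% of all genes tested. The share lower was thus near that of all genes. The counts were 6 higher and 2 lower with median-ratio scaling, and none higher and 17 lower with quantile normalization. Within 2-fold of the ES level lay 30 of the 31 (96.8%), against 54.8% of all genes tested. Psmb6, the constitutive subunit that Psmb9 replaces, was at 96.4 and 99.9 FPKM against 188 and 184. H2 heavy chains are close copies of one another, so the level of a single one is uncertain.

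Interferon response genes were higher in 19 of 27 cases and lower in 2, with a median of 1.39. Igtp and Ifi47, GTPases induced by interferon gamma, were at 201 and 194 against 0.49 and 0.56 and at 122 and 123 against 0.31 and 0.48 FPKM. The members called lower, Oas1a and Oasl2, did not pass 1.25 FPKM in any of the 4 libraries, and with quantile normalization their log2 fold changes turned to 0.54 and 0.45. Bst2 and Ddx58, the sensor RIG-I, were not called with the deposited scaling and were called higher with median-ratio scaling.

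Pluripotency factors were lower in Th2 cultures without exception. All 14 tested factors were called lower, 12 by a large change, with a median of -4.71, and the other 6 of the list were listed at 0 in all Th2 libraries. Esrrb, a nuclear receptor of naive pluripotency, was at 0.20 and 0.16 FPKM in Th2 cultures and 144 and 146 in ES cells. Klf4 was at 0.11 and 0.38 against 45.99 and 45.6 FPKM, and Klf5 at 0.03 and 0.08 against 54.9 and 56.3. Sall4 was listed at 0 in both Th2 cultures and stood at 116 and 116 FPKM in ES cells. Klf2, which quiescent T cells use as well, was at 5.68 and 11.8 FPKM in Th2 cultures, 68.3 and 70.4 in ES cells and 168 in CD4 T cells, so the 2 T cell populations lay on either side of the ES cells. Without the first Th2 library the call of Klf2 was lost (log2 fold change -2.45, limma adjusted p = 0.0585). Of the 6 listed at 0, Nanog was at 144 and 146 FPKM in ES cells, Nr0b1 at 55.1 and 55.3, Zfp42 (REX1) at 27.3 and 28.7, Tbx3 at 17.5 and 18.2 and Nr5a2 at 12.98 and 12.7.

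**Figure D3:**
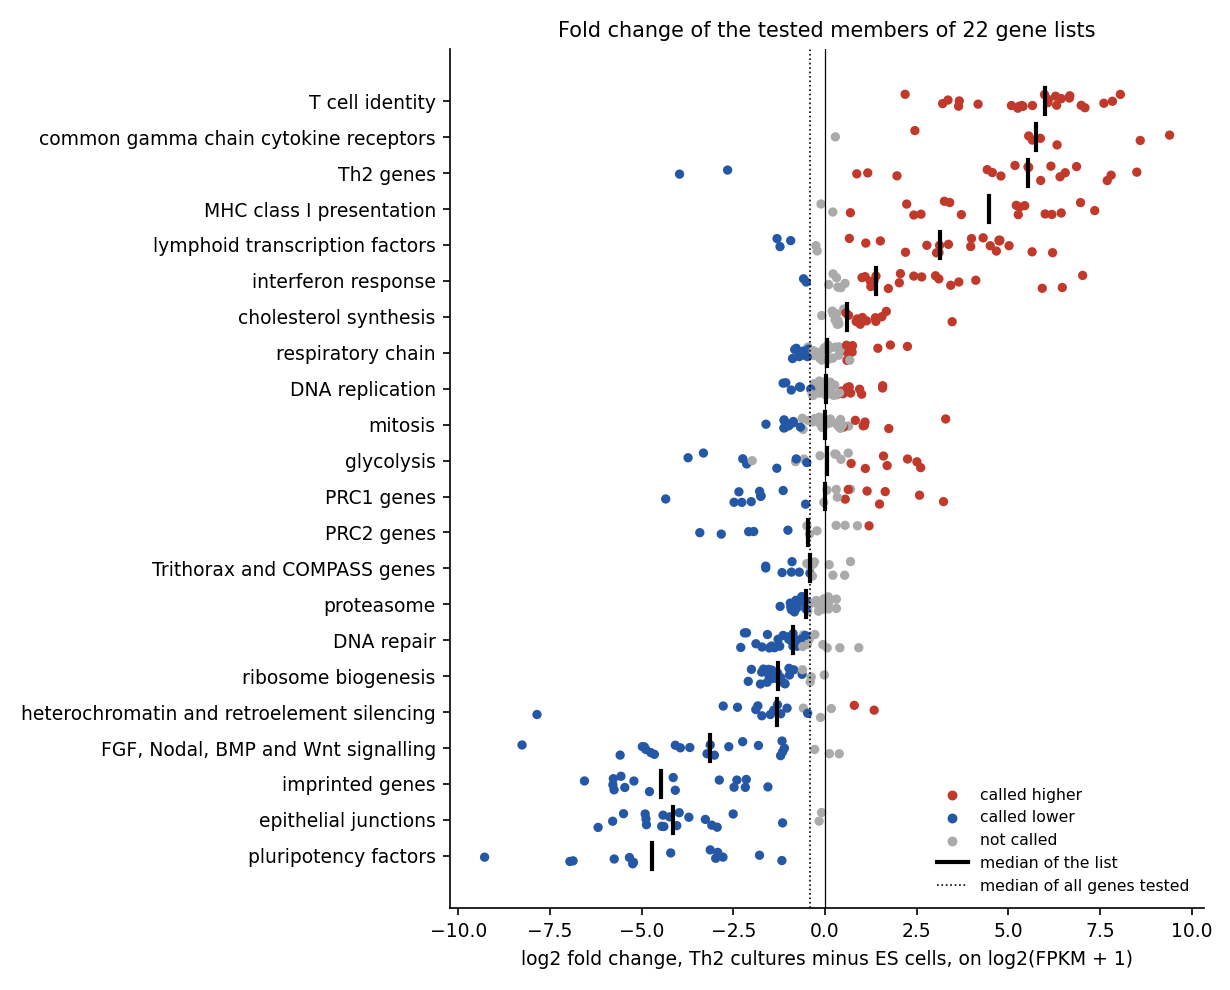
Log2 fold change (Th2 cultures minus ES cells, on log2(FPKM + 1)) of each tested member of 22 gene lists, coloured by call, with the median of each list as a bar and the median of all genes tested, -0.41, as a dotted line. Medians run from 5.98 for T cell identity to -4.71 for pluripotency factors, and replication, mitosis and respiratory chain genes lie between, close to 0.

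Of 17 other markers of ES cells tested, 14 were lower, all by a large change, 1 was higher and 2 were not called. Dnmt3l, the partner of the de novo DNA methyltransferases, was at 0.06 and 0.14 FPKM against 262 and 261, and Zfp57, a zinc finger protein that guards imprints, at 0.04 and 0.08 against 247 and 241. Spp1 (osteopontin) was at 3.83 and 2.39 FPKM against 772 and 773. The member that was higher was Pecam1, an adhesion molecule of both ES cells and blood cells, at 38.2 and 44.2 FPKM against 16.98 and 16.5. L1td1, listed at 0 in all Th2 libraries, was at 258 and 256 FPKM in ES cells.

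Of 23 tested genes of the FGF, Nodal, BMP and Wnt pathways, which signal in the early embryo, 20 were lower and none higher (19 and 2 with median-ratio scaling, 19 and 1 with quantile normalization), with a median of -3.13, and 7 more were listed at 0 in all Th2 libraries. Among ligands, Fgf4, Bmp4 and Nodal were listed at 0 in Th2 cultures and stood at 50.3 and 51.9, at 28.5 and 26.3 and at 24.9 and 23.6 FPKM in ES cells. Among intracellular targets, Spry2 and Spry4, inhibitors that FGF signalling induces, were at 0.51 and 0.55 against 72.5 and 72.2 and at 0.06 and 0.01 against 30.9 and 30 FPKM. Id1, a target of BMP signalling, was at 2.15 and 1.59 FPKM against 42.9 and 42.99. Dusp6, a phosphatase induced wherever ERK is active, was not called with the deposited scaling, at 48.7 and 42.9 FPKM against 41.7 and 42.2, and was called higher with median-ratio scaling.

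Epithelial junction genes were lower in 18 of 20 tested cases, 17 of them by a large change, with a median of -4.14. Cdh1 (E-cadherin), which holds ES cell colonies together, was at 0.19 and 0.05 FPKM against 80.3 and 80.4. Cldn4, a claudin of tight junctions, was at 0.06 and 0.02 against 55.8 and 57.1, and Gja1 (connexin 43) at 1.32 and 1.33 against 104 and 104. Esrp1, the splicing factor of epithelial cells, was listed at 0 in both Th2 cultures and stood at 29.4 and 28.4 FPKM in ES cells. The 2 members not called were Spint2, a protease inhibitor (85.2 and 122 against 113 and 115 FPKM), and Tjp3 (4.54 and 5.53 against 5.33 and 5.5).

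Imprinted genes, expressed from 1 parental copy and mostly in the embryo and placenta, were lower in all 16 tested cases, 14 by a large change, with a median of -4.46. Igf2, a fetal growth factor, was at 0.04 and 0.02 FPKM in Th2 cultures and 96.2 and 95.8 in ES cells. Peg10, a domesticated retroelement gene, was at 1.35 and 1.07 against 119.9 and 119, and Snrpn at 0.19 and 0.21 against 65.7 and 64.4. Slc38a4, an amino acid transporter, was listed at 0 in both Th2 cultures and stood at 53.1 and 52.5 FPKM in ES cells. Fibroblasts carry several imprinted genes as well, and the share of feeder RNA in these ES levels was not tested.

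Of the germline genes tested, 5 of 7 were lower in Th2 cultures, and so were 7 of 9 lineage factors of early development. Tdrd12, of the piRNA pathway, was the germline gene with the largest difference, at 0 and 0.03 FPKM against 41.99 and 40.5. Of the 20 germline genes 11 were listed at 0 in all Th2 libraries, 5 were called lower, 1, Tdrkh, was called higher (4.98 and 5.27 FPKM against 2.34 and 2.0) and 1, Piwil2, was not called (5.03 and 5.76 against 4.82 and 5.16). All 9 tested Hox genes were lower and none by a large change, and of Hoxa3, Hoxa10, Hoxb9 and Hoxc6 none passed 2.92 FPKM in ES cells. Of 28 lineage factors of early development 15 were listed at 0 in all Th2 libraries and 7 of 9 tested were lower, led by Olig1 at 19.2 and 18.5 FPKM in ES cells. Of 11 tested markers of primitive endoderm 10 were lower and 1 higher, and the list summed to 306 and 308 FPKM in ES cells against 1.81 and 1.86 in Th2 cultures. Most of that sum came from Sparc and Lamb1, at 213 and 213 and at 56.1 and 56.7 FPKM in ES cells and singled out after their values were seen, while the lineage factors Gata4 and Gata6 did not pass 3.23 FPKM there. The part of such cells or of feeders in the ES levels was not tested.

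Genes of DNA replication and mitosis were called in both directions, mostly by small changes. Of 39 replication genes 10 were higher and 6 lower with the deposited scaling, 18 and 1 with median-ratio scaling, and 11 and 5 with quantile normalization, and none met the rule for large changes. Over all genes tested 20.6% were higher and 45.5% lower. Their median log2 fold change was 0.02 (0.44 with median-ratio scaling), against -0.41 over all genes tested, and 34 of the 39 (87.2%) lay within 2-fold of the ES level on the log2(FPKM + 1) scale, against 54.8% of all genes tested. Of 40 mitosis genes 7 were higher and 9 lower (16 and 4 with median-ratio scaling, 8 and 8 with quantile normalization), with a median of 0.005, and 30 of 40 (75%) lay within 2-fold. Mcm2 and Mcm3, subunits of the replicative helicase, were at 109 and 109 against 136 and 138 and at 149 and 138 against 155 and 153 FPKM, not called. Pcna, the sliding clamp, was higher, at 387 and 398 FPKM against 132 and 131, with a log2 fold change of 1.57 ± 0.12, and Tk1, a thymidine kinase, at 70.2 and 78.5 against 24.6 and 24.1. Rfc5, Mcm10 and Orc1, which act in clamp loading and at replication origins, were lower, for instance Rfc5 at 33.1 and 29.99 FPKM against 70.9 and 70.5. Rfc5 was the one of the 3 that stayed lower with median-ratio scaling, and Mcm10 was not called without the first or without the second Th2 library (limma adjusted p = 0.057 and 0.084) nor Orc1 without the second (0.0672).

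In mitosis, Cdc25b, the phosphatase that starts entry into division, was the single large change, at 71.2 and 75.2 FPKM against 6.79 and 6.39. Mki67, the proliferation antigen, was at 142 and 107 FPKM against 36.4 and 36.1, with a log2 fold change of 1.74 ± 0.34. Anln, Ect2 and Ccnf were lower under both scalings, Anln at 11.6 and 12.4 FPKM against 39.05 and 38.1. Top2a was not called with the deposited scaling (302 and 225 against 167 and 166 FPKM) and was called higher with median-ratio scaling. In the CD4 T cells the median of the 39 replication genes was 15.2 and 14.9 FPKM, against 44.5 and 42.97 in Th2 cultures and 48.8 and 47.1 in ES cells. For the mitosis genes the medians were 6.63 and 6.64 FPKM in CD4 T cells, 60.2 and 54.1 in Th2 cultures and 49.4 and 49.5 in ES cells. Beside this, the CD4 T libraries held B cell markers summing to 489 and 499 FPKM and myeloid markers summing to 994 and 983, and their part in these medians was not tested. In bulk samples fewer dividing cells and less RNA of these genes per cell cannot be told apart.

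**Figure D4:**
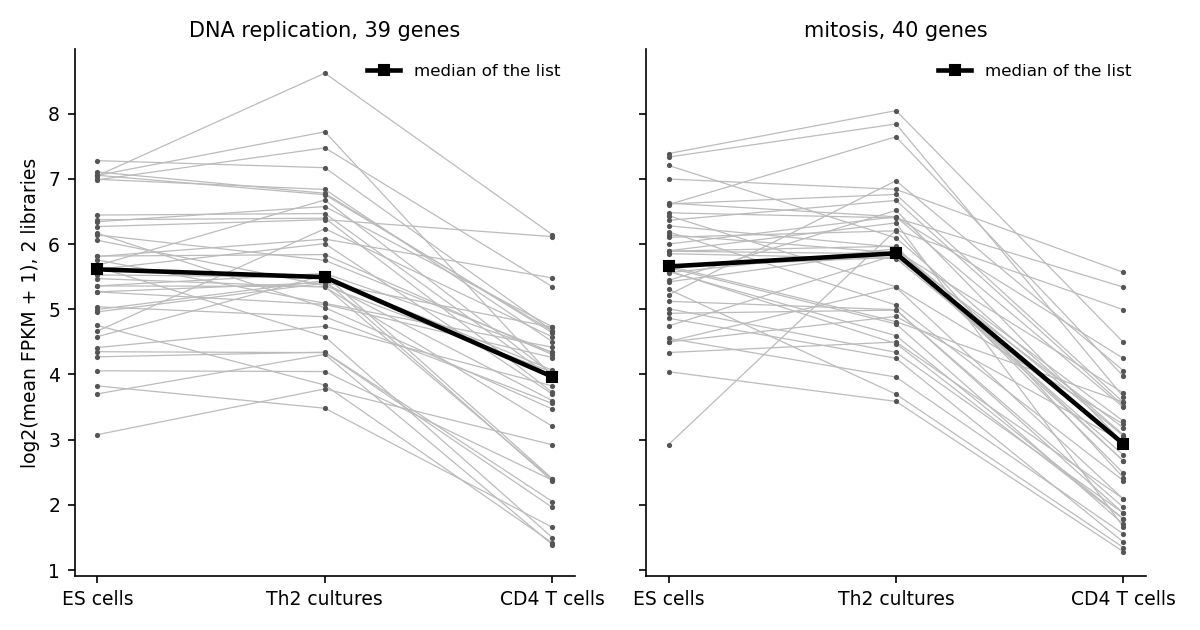
Levels of the tested DNA replication (left, 39 genes) and mitosis genes (right, 40 genes) as log2(mean FPKM + 1) over 2 libraries in ES cells, Th2 cultures and CD4 T cells, with a grey line per gene and the median of the list in black. The medians of ES cells and Th2 cultures lie close together, and those of CD4 T cells lie below both.

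Of 24 genes that control entry into the cycle 7 were higher and 8 lower with the deposited scaling, against 20.6% and 45.5% of all genes tested. The counts were 12 and 4 with median-ratio scaling and 12 and 5 with quantile normalization. Of all 12367 genes tested, 3479 were higher and 4134 lower with median-ratio scaling, and 3797 and 4198 with quantile normalization. Among D-type cyclins, Ccnd1 was at 0.20 and 0.08 FPKM in Th2 cultures and 67.4 and 67.9 in ES cells, a log2 fold change of -5.91 ± 0.18 (limma adjusted p = 2.46e-05). Ccnd2 was at 70.7 and 64.8 against 17.2 and 17.8 FPKM, higher by 1.89 ± 0.13. Ccnd3, the most abundant of the 3 in both populations, was at 194 and 268 against 136 and 136 FPKM, not called with the deposited scaling and called higher with median-ratio scaling and quantile normalization. Their partner Cdk6 was higher, at 36.1 and 28.2 FPKM against 7.22 and 7.58, while Ccne1, the cyclin that ES cells keep high through the cycle, was lower, at 42.6 and 34.8 against 137 and 135. Rbl2, the pocket protein p130, was at 31.1 and 30.8 against 3.15 and 3.14 FPKM. Among E2F genes, E2f2 was higher (29.5 and 29.1 against 2.5 and 2.52), E2f5 lower (2.0 and 2.3 against 23.6 and 22.6), and E2f1 was not called (19.2 and 21.7 against 19.99 and 20.7). The inhibitors split too: Cdkn2c (p18) was higher, at 23.6 and 19.5 FPKM against 0.65 and 0.53, while Cdkn2a and Cdkn2b were lower, at 5.79 and 4.0 against 24.7 and 25.9 and at 1.57 and 1.69 against 10.3 and 9.8. Mouse embryonic fibroblasts in culture are known for Cdkn2a, and the part of feeder RNA in its ES level was not tested.

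Genome maintenance genes were mostly lower with the deposited scaling, and fewer of them were called where the overall shift was scaled out. Of 36 DNA repair genes 24 were lower and none higher with the deposited scaling, with a median of -0.87 against -0.41 over all genes tested. The counts were 12 and 2 with median-ratio scaling and 16 and 2 with quantile normalization. Of all 12367 genes tested, 5629 were lower with the deposited scaling, 4134 with median-ratio scaling and 4198 with quantile normalization. With median-ratio scaling the share of repair genes called lower was thus near that of all genes tested. The mismatch repair gene Msh6 was at 38.2 and 32 against 158 and 157 FPKM. Xrcc5 (Ku80) was at 13.9 and 12.2 against 68.8 and 67.02 FPKM, and its partner Xrcc6 (Ku70) was not called (29.1 and 23.9 against 40.8 and 40.5). Tert, the catalytic subunit of telomerase, was at 1.02 and 0.92 FPKM against 8.03 and 7.94. Of 20 genes of the p53 pathway 2 were higher and 11 lower, against 20.6% and 45.5% of all genes tested. Gadd45a was at 1.21 and 1.11 FPKM against 97.3 and 98.5, and Pmaip1 (Noxa) at 5.9 and 5.61 against 50.6 and 50.8. Cdkn1a (p21), a p53 target that T cell activation also induces, was higher, at 111 and 169 FPKM against 68.6 and 69.3 and 1.08 in CD4 T cells, but its call was lost without the second Th2 library (log2 fold change 0.68, limma adjusted p = 0.116) and with no filter on low values (0.0525).

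In the BCL2 family, the survival gene Bcl2 was at 74.6 and 80.5 FPKM in Th2 cultures and 0.59 and 0.67 in ES cells, a log2 fold change of 5.59 ± 0.14. The pro-death genes Bcl2l11 (Bim), Bid and Bok were lower, Bcl2l11 at 4.16 and 6.49 FPKM against 20.1 and 20.3. In all, 5 of 17 were higher and 5 lower, against 20.6% and 45.5% of all genes tested. Mcl1, which T cells and ES cells both need, was not called (94.98 and 112 against 128 and 128 FPKM). The Bcl2a1 copies are near identical, so their single levels are uncertain. In the Myc network, Mycn was at 0.82 and 0.79 FPKM against 54.5 and 53.9, while the antagonists Mxd1, Mxd3, Mxd4 and Mxi1 were higher, Mxd3 at 23.6 and 34.3 against 6.89 and 6.43. Mxd4 and Mxi1 lost their calls without the second Th2 library (limma adjusted p = 0.111 and 0.0613). Myc was listed at 0 in all Th2 libraries and stood at 24.5 and 24.5 FPKM in ES cells. Since dividing T cells are known to express Myc, this 0 may be a failed match of names, which was not tested.

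Of 22 glycolysis genes 7 were higher and 7 lower (7 and 5 with median-ratio scaling, 7 and 10 with quantile normalization), with a median of 0.07. Over all genes tested 20.6% were higher and 45.5% lower with the deposited scaling. Hk1 was at 64.6 and 87.2 FPKM against 15.1 and 14.9 and Hk2 at 30.3 and 28.97 against 75.6 and 74.7, so the hexokinases moved in opposite directions. Ldha was at 1052 and 1356 FPKM against 558 and 556 and Ldhb at 7.54 and 7.84 against 84.2 and 86.6. Slc2a1 (GLUT1) was lower, at 60.01 and 110.4 against 361 and 361 FPKM, and the 2 Th2 values lay far apart. Without the first or without the second TSA-treated library in the fit, the calls of Slc2a1 (limma adjusted p = 0.0601 and 0.0607) and Ldha (0.057 in each case) were lost. Pkm, the pyruvate kinase, was not called with the deposited scaling (1024 and 1354 against 972 and 985 FPKM) and was called lower with quantile normalization (-0.60 on the log2 scale). Without the second Th2 library Hk2 was no longer called (log2 fold change -1.28, limma adjusted p = 0.0569). The values of Gapdh, Pgk1, Pgam1 and Eno1 are uncertain, since these genes have many near-identical processed pseudogenes. In CD4 T cells Ldha stood at 156 FPKM and Hk2 at 2.35, below both populations.

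Cholesterol synthesis genes were called in 1 direction. Of 22 cholesterol synthesis genes 12 were higher and none lower with the deposited scaling, 18 and 0 with median-ratio scaling and 15 and 0 with quantile normalization, with a median of 0.605. Idi1, isopentenyl diphosphate isomerase, was at 56.9 and 58.8 FPKM against 4.27 and 4.39, with a log2 fold change of 3.46 ± 0.15. Insig1, which restrains the pathway when sterols are plentiful, was at 69.5 and 70.7 against 21.5 and 21.2 FPKM, and Ebp, a sterol isomerase, at 37.7 and 39.7 against 12.6 and 12.5. In fatty acid synthesis 6 of 14 were higher and 3 lower: Scd2, a desaturase, was at 313 and 295 against 97.04 and 96.9 FPKM, while Fasn and Acly, which make the chain and its precursor, were not called (89.7 and 91.5 against 74.8 and 74.7 and 113 and 120.4 against 121 and 122 FPKM). Me1, a source of NADPH, was lower, at 0.51 and 0.96 against 9.65 and 9.44.

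Threonine and glycine breakdown marked the ES cells. Tdh, threonine dehydrogenase, on which mouse ES cells depend, was listed at 0 in both Th2 cultures and stood at 189 and 192 FPKM in ES cells. Gldc and Amt, of the glycine cleavage system, were at 0 and 0.01 against 72.8 and 73.6 and at 1.53 and 1.24 against 37.04 and 36.97 FPKM, and Gcsh at 21.7 and 15.2 against 85.9 and 83.4. Serine synthesis did not follow: Phgdh was higher, at 69.1 and 68.5 FPKM against 30.4 and 31.01, Psat1 was not called (148 and 127 against 139.6 and 137), and Ahcy, which clears the product of methylation reactions, was higher, at 143 and 149 against 37.5 and 37.8. Among amino acid transporters 6 of 19 were higher and 9 lower, against 20.6% and 45.5% of all genes tested. Slc7a11, the cystine carrier, was at 8.04 and 8.99 against 0.27 and 0.26 FPKM, and Slc7a5, the leucine carrier, was not called (80.5 and 67.8 against 67.5 and 67.9). Slc7a1 and Slc7a3, carriers of arginine and lysine, went opposite ways, at 29.6 and 22.9 against 10.6 and 10.3 and at 1.8 and 1.87 against 72.3 and 73.7 FPKM. The call of Slc7a1 was lost without the first Th2 library (log2 fold change 1.06, limma adjusted p = 0.0729).

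Most genes of the respiratory chain and the citric acid cycle lay within 2-fold of the ES level. These were 37 of 40 (92.5%) and 20 of 25 (80%), against 54.8% of all genes tested. Of 40 respiratory chain genes 9 were higher and 9 lower, against 20.6% and 45.5% of all genes tested. The counts were 21 and 0 with median-ratio scaling, and 11 and 11 with quantile normalization. Cox4i1 was at 512 and 535 FPKM against 574 and 575, not called with the deposited scaling and called lower with quantile normalization. Of 25 genes of the citric acid cycle and pyruvate entry 4 were higher and 10 lower (8 and 5 with median-ratio scaling, 5 and 10 with quantile normalization), among them Mpc1, a subunit of the pyruvate carrier, at 19.6 and 26.1 against 8.3 and 9.23 FPKM (not called without the second Th2 library, limma adjusted p = 0.0748), and Pdha1, of pyruvate dehydrogenase, at 44.8 and 44.2 against 118 and 118. Ribosome biogenesis genes were lower in 22 of 26 cases with the deposited scaling, in 11 with median-ratio scaling and in 19 with quantile normalization, and higher in none. Their median was -1.29. Over all genes tested 45.5% were lower with the deposited scaling, with a median of -0.41. Rrn3, an initiation factor of RNA polymerase I, was at 20.7 and 17.4 FPKM against 83.8 and 84.8. In purine and pyrimidine synthesis 4 of 18 were higher, among them Impdh1 (60.4 and 75.7 against 25.7 and 25.8), and 8 lower, among them Paics (72.05 and 68.7 against 219 and 219.8) and Gart (48.95 and 36.8 against 152 and 153). With the deposited scaling the shares of this list, and those of the citric acid cycle list, were near those of all genes tested (20.6% higher and 45.5% lower).

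Among the Polycomb and Trithorax genes, the subject of the series, both core and accessory subunits were called. Polycomb repressive complex 2 (PRC2) methylates lysine 27 of histone H3, PRC1 binds that mark and ubiquitinates histone H2A, and Trithorax and COMPASS complexes methylate lysine 4. Ezh2, the catalytic subunit of PRC2, was at 135 and 109.8 FPKM in Th2 cultures and 83.6 and 82.7 in ES cells, not called with the deposited scaling (log2 fold change 0.55 ± 0.21, limma adjusted p = 0.0755) and called higher with median-ratio scaling. CD4 T cells carried Ezh2 at 28.4 FPKM. Eed, a core subunit, was lower, at 40.9 and 39 FPKM against 155 and 158. Some accessory subunits were lower: Jarid2 was at 10.8 and 11.9 FPKM against 130.3 and 131 (log2 fold change -3.41 ± 0.15, adjusted p = 7.89e-05), E130012A19Rik, the symbol these files give to the elongin adaptor EPOP, at 16.8 and 20.8 against 137 and 141, and Mtf2 at 17.8 and 18.4 against 80.3 and 79.6. Aebp2, an accessory subunit as abundant in ES cells as Jarid2, was not called (123 and 108 against 137 and 132 FPKM), and it was called higher where the rows of a gene were summed or averaged. Those settings treat the 2 groups unlike, since the Th2 files repeat 1 value over the rows of a gene and the ES files hold a value per transcript. Phf19, the other Polycomb-like protein with a call, was higher, at 11.7 and 11.4 against 4.32 and 4.59 FPKM. In all, 1 of 12 PRC2 genes was higher and 5 lower with the deposited scaling, against 20.6% and 45.5% of all genes tested. The counts were 4 and 4 with median-ratio scaling and 3 and 5 with quantile normalization.

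Of 22 tested PRC1 genes 7 were higher and 10 lower, against 20.6% and 45.5% of all genes tested, with 10 and 9 under median-ratio scaling and 10 and 9 under quantile normalization. Rnf2, the catalytic ubiquitin ligase, was lower, at 11.3 and 11.99 against 49.96 and 50.1 FPKM (singled out after its values were seen), and its family had no member called higher with the deposited scaling, though it had with both other scalings. Members called in both directions were found in 4 families. Among chromobox proteins, which read the H3 mark, Cbx8 was higher, at 5.95 and 6.44 against 1.23 and 1.38 FPKM, and Cbx7, the main reader in ES cells, was lower, at 14.4 and 16.2 against 76.7 and 77.9. Among polyhomeotic proteins, Phc3 was higher, at 27.2 and 25.9 against 3.56 and 3.68 FPKM, and Phc1 lower, at 4.87 and 5.06 against 119.7 and 120.4, a log2 fold change of -4.34 ± 0.16 (adjusted p = 3.99e-05). Among Pcgf proteins, which set the type of PRC1, Bmi1 was higher, at 10.2 and 12.02 against 3.12 and 3.49 FPKM, and Pcgf2 and Pcgf6 were lower, at 5.49 and 6.22 against 36.9 and 37.4 and at 12.9 and 11.5 against 44.1 and 44.7. Yaf2 was higher and its homolog Rybp lower, at 13.3 and 17.9 against 6.48 and 6.38 and at 6.7 and 6.07 against 15.2 and 15.4 FPKM, although Yaf2 was not called without the second Th2 library (log2 fold change 0.95, limma adjusted p = 0.0888). Each of these 4 families kept calls in both directions with median-ratio scaling and with quantile normalization.

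Trithorax genes differed less. Of 16 tested, 13 lay within 2-fold of the ES level, against 6 of 12 PRC2 and 8 of 22 PRC1 genes. None was higher and 7 were lower with the deposited scaling, against 20.6% and 45.5% of all genes tested, so the share lower was near that of all genes. The counts were 3 and 3 with median-ratio scaling, and 2 and 6 with quantile normalization. Men1, which encodes menin, was at 29.6 and 38.03 FPKM in Th2 cultures and 22.5 and 23.1 in ES cells, with a log2 fold change of 0.54 ± 0.22 (limma adjusted p = 0.0857), not called with the deposited scaling and called higher with median-ratio scaling and quantile normalization. Kmt2a, the methyltransferase MLL1 that binds menin, was at 14.02 and 9.64 against 9.78 and 10.02 FPKM, with a log2 fold change of 0.21 ± 0.28, not called under any of the 3 scalings. The shared core subunits Wdr5 and Ash2l were lower with the deposited and with median-ratio scaling, at 32.6 and 28.5 against 95.7 and 95.5 and at 32.8 and 28.7 against 95.7 and 96.2 FPKM.

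Of 24 tested SWI/SNF remodellers 4 were higher and 11 lower, shares near those of all genes tested (20.6% and 45.5%). The counts were 5 and 5 with median-ratio scaling and 5 and 6 with quantile normalization. Smarca2 (BRM), Smarcc2 (BAF170) and Smarcd2 were among those higher, and Smarcc1 (BAF155) and Smarcd1 among those lower. Smarcc2 was at 41.1 and 37.1 FPKM against 10.4 and 10.3 and Smarcc1 at 31.9 and 21.5 against 74.1 and 73.6. Smarcc1 lost its call with median-ratio scaling and without the second Th2 library (log2 fold change -1.19, limma adjusted p = 0.0826). Among DNA methylation genes, Dnmt1, which maintains methylation, was at 117 and 103 FPKM against 67.2 and 65.9, called higher but not without the first or without the second Th2 library (limma adjusted p = 0.153 and 0.0974), while Dnmt3b, a de novo enzyme, was lower at 4.83 and 3.72 against 86.1 and 86.1. Tet2, which oxidises methylcytosine, was lower, at 7.87 and 7.45 against 25.9 and 25.8 FPKM. Among heterochromatin genes 12 of 17 were lower, with a median of -1.30, against 45.5% and a median of -0.41 over all genes tested. Trim28 (KAP1), which silences retroelements with zinc finger proteins, was at 107 and 115 FPKM against 581 and 588, and Cbx1 at 35.2 and 29.1 against 223 and 227, while the other heterochromatin protein Cbx3 was higher, at 114 and 132 against 47.3 and 48.7. Of the histone deacetylases, Hdac7, a class IIa enzyme of thymocytes, was higher, at 56.7 and 74.8 FPKM against 5.12 and 5.07, Sirt1 lower, at 9.35 and 8.29 against 48.5 and 48.7, and Hdac1, which was called higher with median-ratio scaling, and Hdac3 were not called (79.7 and 76.4 against 78.2 and 76.7 and 42.6 and 40.2 against 40.1 and 41.1 FPKM).

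Of 49 families of paralogs, 47 had at least 2 tested members and 25 of them had calls in both directions. The number was 27 with median-ratio scaling and 25 with quantile normalization, and 20 families had them under all 3 scalings. Both directions reached the size of a large change in E2F, the Ink4 inhibitors, Phc, Id and the catalytic subunits of PI3 kinase, among others. Id2, which lymphocytes use, was at 244 and 299 FPKM against 25 and 25.6, and Id1 and Id3, BMP targets in ES cells, were lower, with Id3 at 23.3 and 26.96 against 57.1 and 58.4 and not called with median-ratio scaling or without the first or without the second Th2 library (limma adjusted p = 0.0955 and 0.0697). Pik3cd and Pik3cg, the leukocyte forms of PI3 kinase, were at 137 and 154 against 6.41 and 6.51 and at 46.03 and 36.2 against 0.04 and 0.04 FPKM, and Pik3cb was lower, at 2.51 and 2.05 against 16.1 and 15.9. Tcf7l1 and Tcf7l2 were lower while Lef1 was higher, Tcf7l1 at 0.40 and 0.91 FPKM against 29.4 and 28.99. Over all genes tested 20.6% were called higher and 45.5% lower, the background against which these family counts stand.

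**Figure D5:**
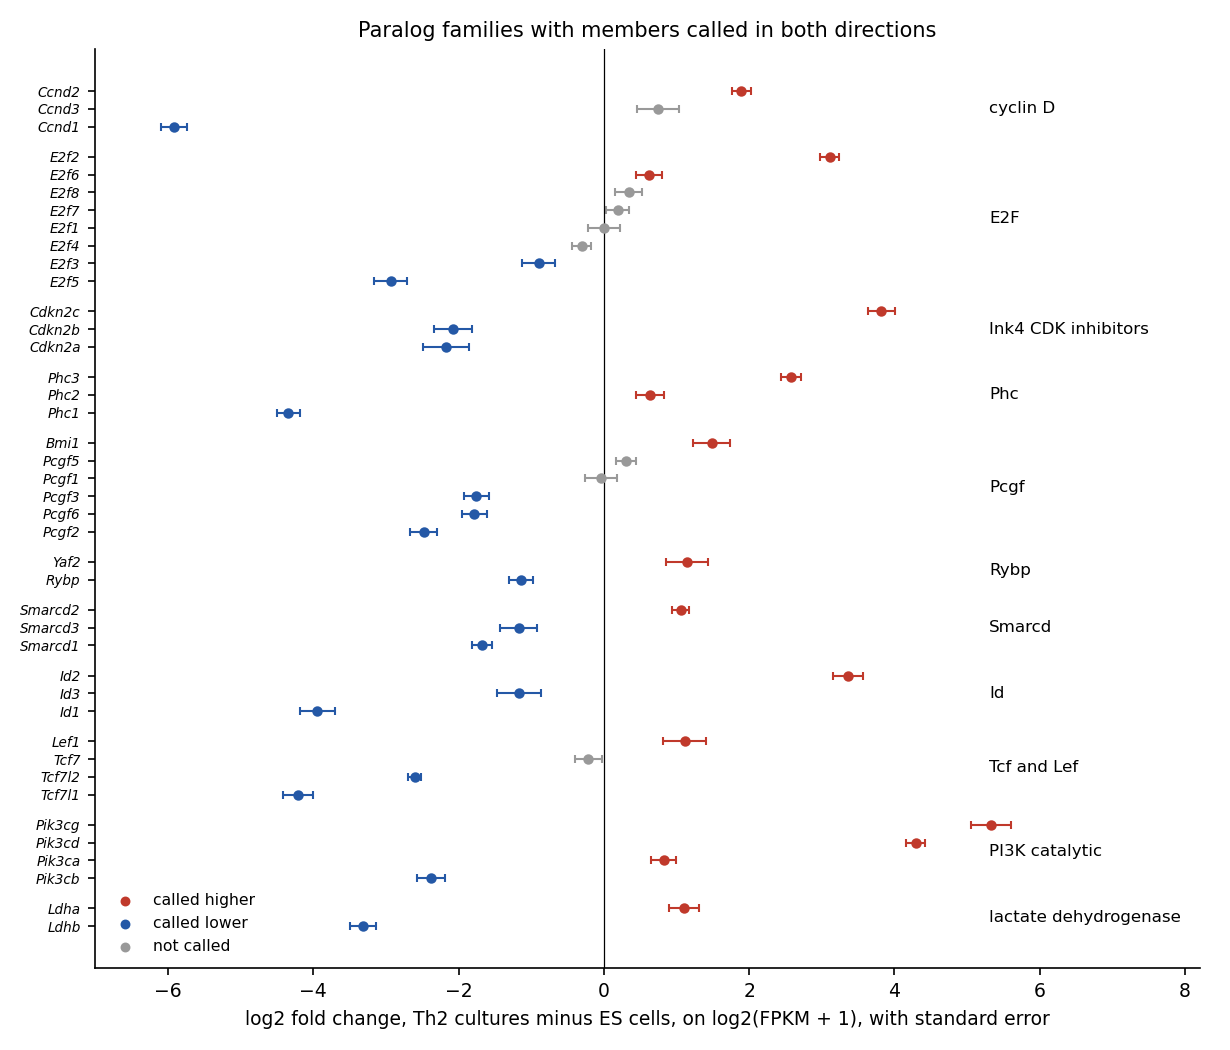
Log2 fold change (Th2 cultures minus ES cells, on log2(FPKM + 1)) with its standard error for the tested members of 11 paralog families, coloured by call. In each family at least 1 member lies clearly above 0 and at least 1 clearly below it, from 5.33 for Pik3cg to -5.91 for Ccnd1.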

How the data were processed

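Per the labels' protocols, total RNA was sequenced as TruSeq libraries, and the tools named with mm10 are Cufflinks 2.0.2, TopHat 1.3.2 and Bowtie 0.12.8, per the submitters' processing notes. Sources used here give no settings, strand or read numbers. The authors deposited FPKM values in tables of 21035 rows. For a gene with several rows the highest was taken. Symbols damaged into dates (30 rows) or missing (315 rows) were replaced through RefSeq accessions, of which 20486 were found and 549 were not, and these annotations and promoter windows are RefSeq GRCm38.p6. Groups and replicate numbers came from sample titles. The comparison of Th2 cultures with ES cells used log2(FPKM + 1) and a two-sided test in limma 3.58.1 (R 4.3.3) with a trended prior, all 5 groups sharing 1 estimate of the spread, and the script was tested on simulated data. Depth is unknown, so no counting interval is given. Fold changes on this scale understate changes of low genes.

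Genes, 55 gene lists and paralog families were chosen with earlier results of these data known. The text names, in each direction, the 15 genes that changed most without overlap of libraries (leaving out small RNAs, numbered models and pseudogenes), up to 4 called members per list and direction with up to 2 abundant uncalled ones, members of families called in both directions, and Gzmb, Gata3, Pou5f1, Sox2, Ezh2, Men1, Kmt2a, Lif and Il4. B cells and TSA-treated cultures enter the fit and are otherwise not described. Other lists and genes that the rule names are not reported here. Alternatives varied the pseudocount, filter, rows, scaling, samples and block.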

Additional observations from a re-analysis of the deposited data

How the results depend on the processing

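The 4 counts of calls were recomputed under 19 alternatives. The count of genes higher in Th2 cultures, 2542 as reported, ran from 1870 to 3797 and that of genes lower, 5629, from 4134 to 6974. With a pseudocount of 5 in place of 1, large increases fell from 808 to 501 and large decreases from 1299 to 530, since a larger pseudocount shrinks the fold change of low genes. The other alternatives kept all 4 counts within 1.5 times. When 1 library was left out at a time, genes higher ran from 1870 to 2546, genes lower from 4290 to 5624, large increases from 783 to 840 and large decreases from 1283 to 1313. Without a Th2 library the lone remaining one is assumed to vary like the other groups. Restricting the test to genes with 1 row in the tables gave 2291 higher and 5013 lower among fewer genes.

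Of 248 tested genes named in the text, 212 were called as reported, and 183 of these kept their call under every alternative that gave a value for them. Among genes called as reported or under the alternative, directions turned with quantile normalization for Foxp3 (log2 fold change 0.008), Oas1a (0.54), Oasl2 (0.45) and Pkm (-0.60), and for Aebp2 with rows summed (0.94) or averaged (0.94), and the cause was not tested. Genes called in neither fit also changed sign, 3 of those named with quantile normalization (Il6st, Tcf7 and Tjp3) and 12 with median-ratio scaling. Leaving out the first Th2 library ended 13 calls among the named genes, Cdc20, Cdc6, Mcm6 and Rrm1 among them, and leaving out the second ended 18 and added those of Mt1 and Slc2a3. Leaving out either TSA-treated library ended 13, among them those of Eno1, Ldha, Mt2 and Slc2a1. Among 2090 counts of calls in the gene lists, 1858 were within 1.5 times of those reported.

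The sample titles give the Th2 and the ES libraries the numbers exp1 and exp2. Across genes, the deviations from the group means correlated by 0.062 between Th2 and ES libraries and by 0.577 between Th2 cultures and TSA-treated ones, and with 2 numbers this does not show that the numbers pair samples. A replicate block in the fit gave 3112 genes higher, 6505 lower, 809 large increases and 1301 large decreases. Read depth is not known from FPKM, so the precision of low values could not be given.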

Other observations

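A few genes differed as much between the 2 Th2 libraries as many genes do between cell types. Mt2, a zinc-binding metallothionein, was at 50.1 and 189 FPKM in the 2 Th2 libraries and at 999 and 991 in ES cells. Mt1 was at 160.0 and 490.4 against 803 and 817. Eno1 was at 6.38 and 32.9 FPKM, and Slc2a3, a glucose transporter, at 49.97 and 152. Gzma was at 339 and 985 FPKM. In each of these 5 genes the second Th2 library was the higher one. Mt2 and Eno1 were called lower than in ES cells, Gzma was called higher, and Mt1 and Slc2a3 were not called. The genes were chosen after their values were seen.

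Genes of the Y chromosome were found in the ES libraries and not in the Th2 cultures. Eif2s3y was at 24.8 and 24.8 FPKM in ES cells and at 0 and 0 in Th2 cultures, Uty at 6.93 and 6.32 against 0 and 0, Ddx3y at 6.25 and 6.75 against 0.01 and 0.02, and Kdm5d at 1.04 and 0.92 against 0 and 0. These genes too were singled out after their values were seen. The labels give no sex, and for genes that depend on it the cell and the sex cannot be told apart.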
